A study of Homo sapiens with 3 samples.

Results

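The genes described here are 30 members of the p53 pathway, chosen by symbol from a fixed list, out of 22613 genes listed in each of 3 RNA sequencing libraries of LNCaP-abl cells. LNCaP-abl is an androgen-independent subline of the LNCaP prostate cancer line. The siE2F1 group (1 library) received a pool of siRNAs against the transcription factor E2F1, and the control group (2 libraries, numbered 0 and 1 in the labels) received control siRNA. All 3 libraries came from cells kept in serum stripped of steroids, transfected with a lipid reagent and taken after 72 h, at passages that the labels give as a range common to all. The siE2F1 group has no replicate and uses a pool rather than single siRNAs. Nothing in the labels says that the 2 controls are separate cultures. The p-values thus measure only the spread between those 2 libraries, partly averaged over genes, and this spread may be technical. The values are gene-level FPKM, a unit scaled to transcript length and library size, so levels are per length, and read depth is unknown. The values are RNA levels and so do not show whether the pathway is intact or active.

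p53 is a transcription factor that MDM2 and MDM4 hold in check in unstressed cells. When DNA is damaged or growth signals conflict, stabilised p53 activates genes for cell cycle arrest, DNA repair, antioxidant metabolism and cell death, and also MDM2 and PPM1D, which switch it off again. E2F1, the factor silenced here, drives genes of S phase and can raise p53 levels through ARF, the inhibitor of MDM2 encoded by CDKN2A. The comparison shows how p53 pathway genes differ between cells with low and with normal E2F1.

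E2F1 fell to 1.68 FPKM in siE2F1, against 10.6 FPKM in control 0 and control 1 alike (log2 fold change -2.12, limma with Benjamini-Hochberg adjustment, adjusted p = 0.0311). Fold changes are differences in log2(FPKM + 1), siE2F1 over the mean of the controls, which understates the change of low genes. Of 14401 genes tested, those whose mean was 1 FPKM or more, 60 passed an adjusted p of 0.05, most of them small RNA genes, whose FPKM is unsteady. When small RNA genes were left out, 1467 of 13928 passed, although the values themselves were the same. That fit gives more weight to the spread averaged over genes (limma prior degrees of freedom 3.19, against 1.69 over all genes tested). The 2 controls add only 1 residual degree of freedom, so calls in that fit rest largely on the spread of other genes. Luminal prostate markers were present (12 of 14 at 1 FPKM or more, summed level 1527 FPKM in siE2F1, against 1319 and 1295 in the controls), with KLK2 and KLK3 below 1 FPKM. Basal markers (3 of 4 listed) summed to 14.2 FPKM in siE2F1, against 15.0 and 13.4, all from the integrins ITGA6 and ITGB4. Neuroendocrine markers, nearly all from ENO2, summed to 32.9 FPKM in siE2F1, against 47.8 and 45.8. Markers of other cell types were low, with few of them listed: 2 of 6 leukocyte markers summed to 4.26 FPKM in siE2F1, against 4.50 and 4.66 in the controls, and 3 of 8 fibroblast and endothelial markers to 1.60, against 1.86 and 1.72, with the basal keratin KRT14 listed at 0 in all 3. All 8 proliferation markers examined were below both controls (summed level 153.5 FPKM in siE2F1, against 285.9 and 271.4) and all 10 interferon-induced markers above both (314.2 FPKM in siE2F1, against 40.6 and 46.3). These last 2 lists were chosen with their direction known, and their part in the p53 pathway values was not tested.

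The p53 pathway genes did not move together. Of the 30, all of which passed the filter on low values, siE2F1 lay above both controls for 11 genes, below both for 17 and between them for 2. In bulk RNA, a lower level in each cell and fewer cells that express a gene cannot be told apart. Over all genes tested these shares were 43.7% above and 39.7% below, against 36.7% and 56.7% of the 30. The median log2 fold change of the 30 genes was -0.08, beside 0.01 for all genes tested, and their median absolute log2 fold change was 0.16, beside 0.18. The controls themselves differed by a median of 0.05 in absolute log2 terms over the 30 genes, and by 0.08 over all genes tested. By more than the gap between the controls, 7 genes were above both and 14 below both, where all genes tested gave 30.4% and 29.1%. The gap is narrower for the 30 genes and so easier to exceed, which makes these shares unlike measures.

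SESN1 stood apart in size. Its log2 fold change of 0.99 was followed by 0.39 for TP53INP1, and the remaining 29 genes ranged from -0.53 to 0.39. SESN1 was singled out with its value known, so this distance is a description and has no test. In the limma fit over all genes tested no member was called higher or lower (background 0.312% and 0.104% of genes), although 3 members had an unadjusted p under 0.05 on the higher and 5 on the lower side, where 13.5% and 14.9% of all genes tested did. Without small RNA genes 2 members rose, SESN1 (adjusted p = 0.0272) and TP53INP1 (adjusted p = 0.0498), and 1 fell, PLK3 (adjusted p = 0.0472), where 4.17% of all genes were called higher and 6.36% lower. SESN1 is thus the member farthest from the controls but not the only one called higher in that fit.

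**Figure D1:**
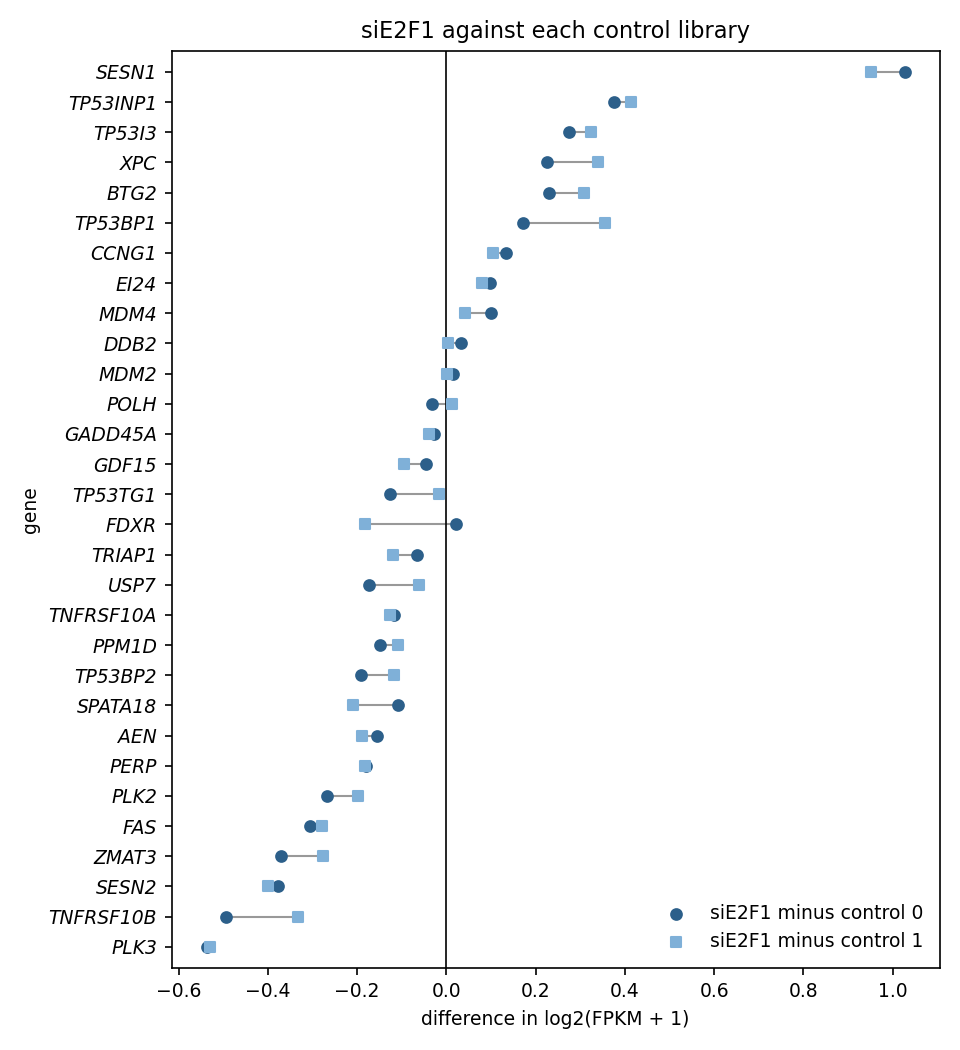
Difference in log2(FPKM + 1) between the siE2F1 library and each control library (circles, control 0; squares, control 1) for the 30 p53 pathway genes, ordered by mean difference, with a line joining the 2 differences of a gene. SESN1 lies near 1 against either control, while every other gene lies between -0.54 and 0.41.

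The sestrins and the other redox and metabolic targets gave the widest spread. SESN1, a sestrin that restrains mTORC1 signalling and supports peroxide clearance, was at 146.5 FPKM in siE2F1, against 71.4 FPKM in control 0 and 75.3 FPKM in control 1. The siE2F1 value is 2.00 times the control mean, and the groups are far apart compared with the distance between the controls. Against control 0 alone the log2 difference was 1.03 and against control 1 alone 0.95, while the controls differed by 0.08. The standard error was 0.0736 in the fit over all genes tested (limma, adjusted p = 0.111). In that fit, 1.27% of all genes had a log2 fold change at or above that of SESN1, and without small RNA genes 0.452%. SESN1 also had the highest level of the 30 genes in siE2F1. In the controls it was also the highest, with CCNG1 (69.8 and 71.2 FPKM) and EI24 (69.0 and 69.9 FPKM) just below; the control values of CCNG1 and EI24 overlap.

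SESN2, the stress-induced leucine-sensing paralog of SESN1, went the other way. It was at 5.66 FPKM in siE2F1, against 7.65 and 7.78 FPKM in the controls (log2 fold change -0.39, limma, adjusted p = 0.115, and 0.0539 without small RNA genes). Its siE2F1 value is below both controls, which nearly coincide. SESN3, the paralog that FOXO factors are known to induce and no member of the list, was at 59.4 FPKM in siE2F1, against 34.9 and 34.5 FPKM (log2 fold change 0.76, limma, adjusted p = 0.111, and 0.0299 without small RNA genes). Of the 3 sestrins, 2 thus lay above both controls and 1 below (all genes tested, 43.7% and 39.7%), and SESN2 was the lowest of the 3 in every library. TP53I3, a quinone oxidoreductase that generates reactive oxygen species, was at 1.58 FPKM in siE2F1, against 1.14 and 1.06 FPKM (log2 fold change 0.30, and 0.49 with a pseudocount of 0.1). FDXR, the mitochondrial ferredoxin reductase, was at 8.53 FPKM in siE2F1, inside the controls at 8.38 and 9.81 FPKM.

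**Figure D2:**
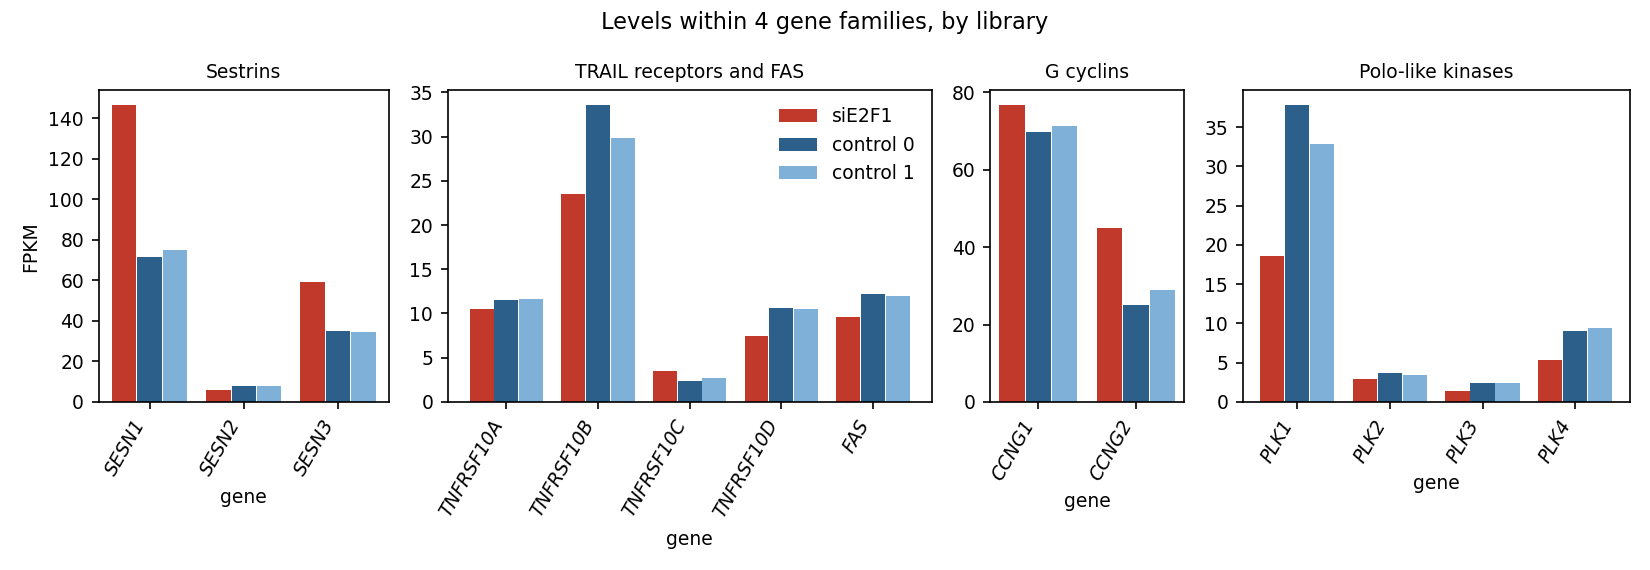
FPKM in the siE2F1 library (left bar of each gene), control 0 and control 1 for the sestrins, the receptors for TRAIL with FAS, the G cyclins and the polo-like kinases. Within families the direction differs: SESN1 and SESN3 are above both controls and SESN2 below, and TNFRSF10C is above both while the other receptors are below.

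Of the regulators of p53, MDM2 and MDM4 were closest to the controls. MDM2, the ubiquitin ligase that degrades p53 and is itself a p53 target, was at 16.9 FPKM in siE2F1, against 16.8 and 16.9 FPKM in the controls (log2 fold change 0.008), the nearest to 0 of the 30 genes. Its partner MDM4 was at 7.94 FPKM, against 7.34 and 7.69 FPKM (0.07). USP7, which removes ubiquitin from MDM2 and p53, had a log2 fold change of -0.12, and PPM1D, the WIP1 phosphatase that reverses p53 phosphorylation, of -0.13. The p53-binding proteins differed in sign. TP53BP1, a scaffold at DNA breaks, was at 14.1 FPKM, against 12.4 and 10.8 FPKM (0.26), and TP53BP2, which steers p53 toward death genes, at 8.90 FPKM, against 10.3 and 9.75 FPKM (-0.15). For TP53BP1 the controls lay further apart than siE2F1 lay from the nearer one. In this group 3 of 6 genes were above and 3 below both controls (all genes tested, 43.7% and 39.7%), with a median of -0.06.

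Among 8 genes of growth arrest and stress signalling, 3 were above and 5 below both controls (median log2 fold change -0.05; all genes tested, 43.7% and 39.7%). TP53INP1, a stress-induced nuclear protein that promotes autophagy and p53 phosphorylation, was at 60.8 FPKM in siE2F1, against 46.6 and 45.4 FPKM in the controls (0.39, limma, adjusted p = 0.116 over all genes tested). BTG2, an antiproliferative partner of the deadenylase complex, was at 9.44 FPKM, against 7.89 and 7.43 FPKM (0.27), and CCNG1, cyclin G1, at 76.6 FPKM, against 69.8 and 71.2 FPKM (0.12). These 3 lay above both controls by more than the gap between the controls, as did 30.4% of all genes tested.

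On the lower side, PLK3, a polo-like kinase of stress responses, was at 1.36 FPKM in siE2F1, against 2.42 and 2.40 FPKM in the controls (log2 fold change -0.53, and -0.79 with a pseudocount of 0.1; limma, adjusted p = 0.112 over all genes tested). Its controls nearly coincide and siE2F1 is below both, but the level is low in each library. ZMAT3, an RNA-binding zinc finger protein, was at 3.45 FPKM, against 4.75 and 4.39 FPKM (-0.32), and PLK2 at 2.89 FPKM, against 3.68 and 3.46 FPKM (-0.23). GDF15, a secreted stress cytokine, was at 7.72 FPKM, against 8.004 and 8.305 FPKM (-0.07). GADD45A, which binds PCNA and stress kinases, was at 13.2 FPKM, against 13.5 and 13.6 FPKM (-0.03). GDF15 and GADD45A are thus close to the controls.

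Genes of death and survival lay mostly below the controls: 7 of 8 were below both and 1 above (median log2 fold change -0.17), where 39.7% and 43.7% of all genes tested were. None of the 8 passed limma in either fit, with 0 higher and 2 lower at an unadjusted p under 0.05 (13.5% and 14.9% of all genes tested). TNFRSF10B, the death receptor DR5 for TRAIL, was at 23.5 FPKM in siE2F1, against 33.5 and 29.9 FPKM in the controls (-0.41, adjusted p = 0.153, and 0.0744 without small RNA genes). FAS, the receptor for FAS ligand, was at 9.65 FPKM, against 12.2 and 11.9 FPKM (-0.29, adjusted p = 0.132, and 0.0809). The other TRAIL death receptor, TNFRSF10A, had a smaller difference, at 10.5 FPKM against 11.5 and 11.6 FPKM (-0.12). PERP, a desmosomal membrane protein tied to p53-dependent death, was at 25.9 FPKM, against 29.5 FPKM in either control (-0.18), and the nuclease AEN at 16.5 FPKM, against 18.4 and 18.9 FPKM (-0.17). SPATA18, which takes part in mitochondrial quality control, was at 1.72 FPKM, against 1.93 and 2.14 FPKM (-0.16), and TRIAP1, an inhibitor of apoptosis, at 38.8 FPKM, against 40.6 and 42.2 FPKM (-0.09). EI24, of the endoplasmic reticulum, was the gene above both, at 73.9 FPKM in siE2F1, against 69.0 and 69.9 FPKM (0.09).

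The 3 DNA repair members showed no common direction. XPC, the damage sensor of nucleotide excision repair, was at 16.9 FPKM in siE2F1, against 14.3 and 13.2 FPKM in the controls (log2 fold change 0.28, limma, adjusted p = 0.177, and 0.113 without small RNA genes). DDB2, which finds ultraviolet lesions for the same pathway, was at 9.69 FPKM, against 9.44 and 9.67 FPKM (0.02). POLH, the translesion polymerase eta, was at 7.19 FPKM, between the controls at 7.37 and 7.12 FPKM (-0.01). The noncoding TP53TG1 was at 14.3 FPKM, against 15.7 and 14.5 FPKM (-0.07).

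**Figure D3:**
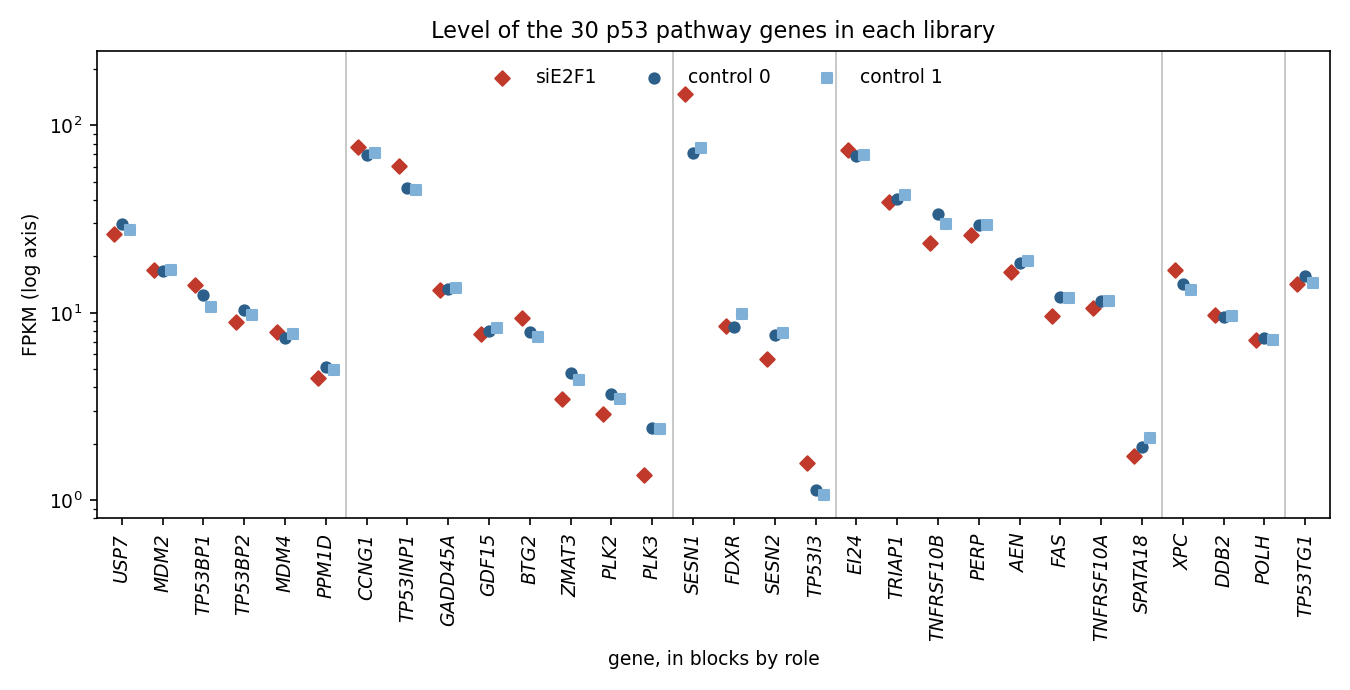
FPKM on a log axis of the 30 p53 pathway genes in siE2F1 (diamonds), control 0 (circles) and control 1 (squares), in blocks by role: regulators, growth arrest, sestrins and redox, death and survival, DNA repair and the noncoding TP53TG1. Levels span from 1.06 FPKM for TP53I3 in control 1 to 146.5 FPKM for SESN1 in siE2F1.

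Promoter sequence was examined for what the members share beyond their names, since p53 binds paired copies of a consensus decamer and E2F factors a short GC-rich element. RefSeq windows of 250 bases before annotated starts (build GRCh38.p14) matched 26 of the 30 genes with 39 windows; GADD45A, TP53INP1, TNFRSF10B and TNFRSF10A had none. A single decamer, a half-site of the full p53 element, was searched on both strands. It was in 6 windows of 6 genes (23.1% of the matched members), against 6.38% of 8828 matched genes tested. Many members are known p53 targets, so the higher share may be built into the list and is no independent finding. These 6 genes are shown with the decamer in capitals, 5′ to 3′ on the strand of the gene, because they share this half-site.
SESN1 (chr6:109008989-109009077, minus strand): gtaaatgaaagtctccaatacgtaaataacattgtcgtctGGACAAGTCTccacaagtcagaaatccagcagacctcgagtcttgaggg
EI24 (chr11:125569427-125569476, plus strand): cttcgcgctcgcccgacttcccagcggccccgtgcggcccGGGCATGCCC
FDXR (chr17:74872995-74873045, minus strand): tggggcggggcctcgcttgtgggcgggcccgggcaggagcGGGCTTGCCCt
AEN (chr15:88621266-88621339, plus strand): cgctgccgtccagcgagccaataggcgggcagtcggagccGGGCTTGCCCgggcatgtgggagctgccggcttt
PLK2 (chr5:58460169-58460258, minus strand): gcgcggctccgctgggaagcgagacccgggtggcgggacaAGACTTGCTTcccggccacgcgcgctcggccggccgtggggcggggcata
FAS (chr10:88991269-88991358, plus strand): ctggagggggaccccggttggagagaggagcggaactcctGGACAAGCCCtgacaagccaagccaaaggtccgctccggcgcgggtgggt

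Among these 6 genes the log2 fold change was 0.99 for SESN1, 0.09 for EI24, -0.08 for FDXR, -0.17 for AEN, -0.23 for PLK2 and -0.29 for FAS. FDXR lay between its controls (limma, unadjusted p = 0.567) and EI24 only slightly above both (unadjusted p = 0.253), so their signs carry little. Any part of the decamer in these values was not tested. In SESN1 the decamer is in 1 of 3 windows, the one before the annotated start lowest in coordinates, and lies 49 to 40 bases before that start. The deposited values are per gene, so they do not show which SESN1 start was used. A match is a description of the letters and not evidence of binding.

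The E2F element was searched as TTTCCCGC, TTTCGCGC, TTTGCCGC and TTTGGCGC on both strands. It was in 4 windows of 3 matched members (11.5%), against 5.71% of the matched genes tested, and in none of the 3 SESN1 windows. These 3 genes are printed with the element in capitals because E2F1 is the factor silenced; MDM2 holds it on the opposite strand, in overlapping windows of 2 starts, of which 1 is shown.
XPC (chr3:14178795-14178851, minus strand): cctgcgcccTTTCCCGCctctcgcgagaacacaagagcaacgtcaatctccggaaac
MDM2 (chr12:68807922-68807987, plus strand): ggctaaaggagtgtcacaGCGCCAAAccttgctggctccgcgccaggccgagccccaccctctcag
AEN (chr15:88621101-88621188, plus strand): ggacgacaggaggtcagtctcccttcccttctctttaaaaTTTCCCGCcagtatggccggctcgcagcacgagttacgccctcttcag

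The log2 fold changes of these 3 genes were 0.28 for XPC, 0.008 for MDM2 and -0.17 for AEN. MDM2 nearly coincided with its controls, and any part of the element in these values was not tested. AEN is the member whose windows held both the E2F element and the p53 decamer.

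Other p53 targets also lay on both sides of the controls. Of 48 further targets, 46 had a value and 39 passed the filter, with 14 above and 20 below both controls (median log2 fold change -0.04; all genes tested, 43.7% and 39.7%). None was called by limma over all genes tested (5 higher and 8 lower at an unadjusted p under 0.05, where all genes gave 13.5% and 14.9%). Without small RNA genes 2 rose and 5 fell, where all genes gave 4.17% and 6.36%. The farthest above were SESN3, RPS27L, a small ribosomal protein paralog (0.39, limma, adjusted p = 0.0494 without small RNA genes), PRKAB2, a subunit of AMP-activated kinase (0.38), and RRM2B, the p53-induced subunit of ribonucleotide reductase (0.37). The farthest below were IGFBP3, a binding protein for insulin-like growth factors, at 32.0 FPKM in siE2F1, against 63.3 and 67.7 FPKM in the controls (-1.01, adjusted p = 0.0272 without small RNA genes), the BH3-only gene PMAIP1 at 1.77 FPKM, against 3.79 and 3.93 FPKM (-0.81, 0.0329), IER5 (-0.61, 0.0396) and the stress factor ATF3 (-0.55, 0.0374). PMAIP1 (-1.09) and IER5 (-0.78) moved with a pseudocount of 0.1.

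A few further targets outside the naming rule are given because they belong to the textbook core of the pathway or to a family above, and were chosen after their values were seen. CDKN1A, the p21 inhibitor of cyclin-dependent kinases, was at 27.4 FPKM in siE2F1, against 33.6 and 34.2 FPKM in the controls (log2 fold change -0.30, limma, adjusted p = 0.133, and 0.0780 without small RNA genes). BAX, the apoptotic pore protein, was at 8.04 FPKM, against 9.09 and 9.46 FPKM (-0.18), and BBC3, which encodes PUMA, at 1.96 FPKM, between the controls. The decoy receptors for TRAIL differed in sign: TNFRSF10C was at 3.47 FPKM, against 2.41 and 2.66 FPKM (0.34), and TNFRSF10D at 7.49 FPKM, against 10.7 and 10.5 FPKM (-0.45, adjusted p = 0.0436 without small RNA genes).

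Of 29 further relatives and modifiers of p53, 27 had a value and 26 were tested, with 12 above both controls and 9 below (median 0.03; all genes tested, 43.7% and 39.7%). None was called by limma over all genes tested (3 higher and 7 lower at an unadjusted p under 0.05, where all genes gave 13.5% and 14.9%). Without small RNA genes 1 rose and 1 fell, where all genes gave 4.17% and 6.36%. SETD8, a methyltransferase for histone H4 and p53, was at 13.0 FPKM, against 27.8 and 26.7 FPKM (-1.01, adjusted p = 0.0272 without small RNA genes). The corepressor TRIM28 had a log2 fold change of -0.42, the checkpoint kinase CHEK1 of -0.37 and the deacetylase SIRT1 of -0.34. Above the controls were HIPK2, a kinase of p53 (0.57, adjusted p = 0.05002 without small RNA genes, just short of the threshold), ATM, the damage kinase (0.46, 0.0490), the acetyltransferase EP300 (0.41) and the ubiquitin ligase UBE4B (0.30). CDKN2A, which encodes ARF and was named after its values were seen, was at 4.83 FPKM, against 4.09 and 4.66 FPKM (0.12).

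Sestrins act on mTORC1 through GATOR2 and are linked to AMP-activated kinase, so 27 sestrin partners and mTORC1 inputs were listed with SESN1. The list also holds KEAP1, NFE2L2, RBX1 and SQSTM1, and it shares PRKAB1, PRKAB2 and TSC2 with the further p53 targets. Of the 27 genes, 16 were above and 8 below both controls (median log2 fold change 0.09, with 43.7% and 39.7% of all genes tested). None was called by limma over all genes tested (3 higher and 2 lower at an unadjusted p under 0.05, where all genes gave 13.5% and 14.9%). Without small RNA genes 1 rose and 0 fell, where all genes gave 4.17% and 6.36%. The gene that rose was RRAGB, a RAG GTPase that brings mTORC1 to lysosomes, at 9.75 FPKM in siE2F1, against 6.50 and 6.89 FPKM in the controls (0.48, limma, adjusted p = 0.0436). PRKAB2 (0.38) and the GATOR2 subunit WDR59 (0.35) followed. On the lower side were PRKAG2, another subunit of AMP-activated kinase (-0.50), the GATOR2 subunit SEH1L (-0.24) and the autophagy receptor SQSTM1 (-0.22). No partner reached the size of the SESN1 difference.

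**Figure D4:**
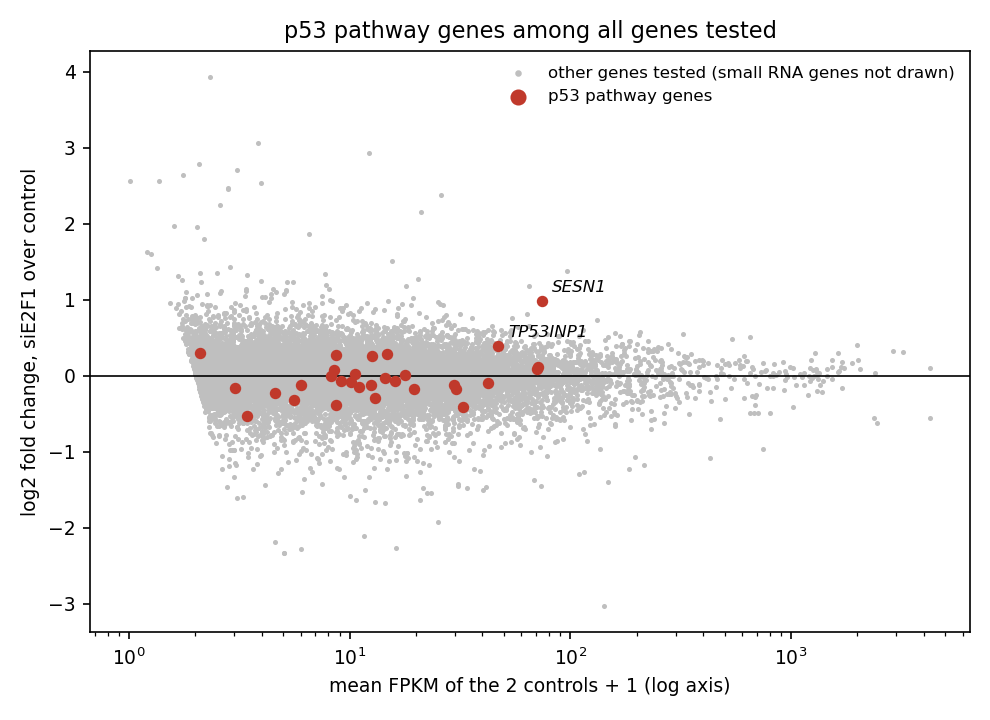
Log2 fold change, siE2F1 over control, against the mean FPKM of the 2 controls plus 1 (log axis) for all genes tested other than small RNA genes (grey) and the 30 p53 pathway genes (red). The p53 pathway genes fall inside the grey cloud, with SESN1 at its upper edge for its level.

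Overlapping genes on opposite strands share reads here, since the kit named in the labels keeps no strand information. In GENCODE release 29, exons of TP53BP1 overlapped those of TUBGCP4 over 28.7% of their length and exons of XPC those of an antisense gene over 23.8%. XPC exons also overlapped those of AC090004.1 over 8.61% and of LSM3 over 6.63%. For SESN1 an antisense RNA overlapped 7.09% of the exons, for FAS ACTA2 overlapped 8.93%, for TNFRSF10A a pair of transcripts overlapped 9.01% and 7.59%, and for TP53TG1 a pair of noncoding RNA entries overlapped 14.9% and 17.8%. Smaller overlaps touched MDM2, PLK3, POLH, TNFRSF10B and TP53I3. EI24 has 4 processed pseudogenes, and CCNG1, POLH and TRIAP1 have 1 each, which can share reads with them.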

How the data were processed

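RNA was sequenced from 3 libraries, 1 siE2F1 and 2 control, grouped by the sample titles. Each deposited file holds 1 log2 FPKM per gene, made by the authors with TopHat2 2.0.4 and Cufflinks 2.0.2 on build hg19, per the submitters' processing notes, with no annotation or scaling step named. The lowest value is log2 of 0.1, so FPKM was taken as 2 to the deposited value minus 0.1. Sorted values differ by at most 0.0653 between libraries, a pattern that quantile normalization gives, which would hide any shift common to most genes. Depth is unknown and no count model was used.

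log2(FPKM + 1) was tested with limma 3.58.1 (R 4.3.3, mean-variance trend, two-sided) over the 14401 genes whose mean was 1 FPKM or more. The spread comes from the 2 controls (1 residual degree of freedom); siE2F1 is assumed to vary alike. Small RNA genes, recognised by the prefixes SNOR, MIR, SCARNA and RNU but not host genes, were left out in an alternative, quoted beside the first fit. The members, gene lists and tests were chosen with earlier results of these data known. Full values were planned for members at least 0.3 from 0 beyond both controls and for the 2 nearest to 0. From the further targets and modifiers 4 genes per direction were named, from the sestrin partners 3; all other values were added for completeness. Symbols of older annotations were matched (SETD8). 1 further gene of the pathway is not reported here. Promoter sequences are from RefSeq, matched by symbol.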

Additional observations from a re-analysis of the deposited data

How the results depend on the processing

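The settings tried were other scalings (common median, quantile), no mean-variance trend, 0.1 as pseudocount, other minimum levels (none, or 5 FPKM), no small RNA genes, and each control left out. No named log2 fold change switched sign in them, apart from POLH, FDXR and BBC3, which lie between the controls, when 1 control was left out. This steadiness was largely fixed in advance. The trend, filter and small RNA settings do not alter fold changes, and the common median moved no library. Sorted values were already nearly alike before the quantile setting. A gene beyond both controls cannot switch sign when 1 control is left out. SESN1 ranged from 0.989 to 0.998 and its adjusted p in limma from 0.0272 to 0.188; it passed without small RNA genes (0.99, adjusted p = 0.0272) and under no other setting. Leaving small RNA genes out gave 581 genes higher and 886 lower, with 2 and 1 of the p53 pathway genes; over all genes tested those 2 counts were 0 and 0, with 3 and 5 at an unadjusted p under 0.05. Genes called higher numbered 7 with a pseudocount of 0.1, 26 at 5 FPKM or more, and 0 (lower, 0) with no filter. E2F1 did not pass with a pseudocount of 0.1 (limma, adjusted p = 0.0601) or with no filter (limma, adjusted p = 0.159). The median log2 fold change of the p53 pathway genes was -0.0515 among genes of at least 5 FPKM. At that level siE2F1 lay above both controls for 10 members and below both for 12, against 11 and 17 in the main setting. The larger count below both thus comes partly from low genes. With 1 control left out no test is possible; SESN1 was at 0.95 to 1.03, the median of the p53 pathway genes at -0.0782 to -0.0558, and siE2F1 lay above the remaining control for 12 members and below it for 18 in either case. No paired analysis was possible with a single siE2F1 library, which also carries no number in its title. The unknown depth means that no counting error can be given, which limits the low genes TP53I3, SPATA18, PLK3 and PLK2 most.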

Other observations

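Close relatives of the p53 pathway genes were also examined, all 15 of them chosen by family. Their median absolute log2 fold change was 0.24, beside 0.16 for the members, with 6 above both controls and 9 below (all genes tested, 43.7% and 39.7%). None was called by limma over all genes tested (1 higher and 5 lower at an unadjusted p under 0.05, where all genes gave 13.5% and 14.9%). In limma without small RNA genes 1 rose and 4 fell, where all genes gave 4.17% and 6.36%. CCNG2, the G cyclin that FOXO factors are known to induce, was at 44.8 FPKM in siE2F1, against 25.1 and 28.96 FPKM in the controls (log2 fold change 0.71, adjusted p = 0.0403 without small RNA genes). PLK1, the mitotic polo-like kinase, was at 18.6 FPKM, against 37.8 and 32.9 FPKM (-0.89, 0.0364), and PLK4, of centriole duplication, at 5.31 FPKM, against 9.04 and 9.39 FPKM (-0.70, 0.0344). BTG3 (-0.50, 0.0415) fell and BTG1 (-0.38, 0.0615) lay below both controls, unlike the member BTG2. GADD45B (-0.47, 0.0496) fell in the same fit and GADD45G was at -0.24, whereas the member GADD45A was near 0.

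Of the remaining relatives, TP53INP2 was at -0.22, TNFRSF1A at -0.08 and PPM1A at -0.04. PPM1B was at 0.06, XPA at 0.13, POLK at 0.15, POLI at 0.19 and DDB1, the partner of DDB2, at 0.28.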
